A study of Mus musculus with 11 samples.

Results

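The 9 genes described here encode the receptors and handling proteins of retinoic acid: the retinoic acid receptors Rara, Rarb and Rarg, the retinoid X receptors Rxra, Rxrb and Rxrg, the cellular retinoic acid-binding proteins Crabp1 and Crabp2, and the degrading enzyme Cyp26b1. They were picked as the members of this pathway by symbol, with earlier results of these data known, and all 9 were found among the 39179 genes of the count table. Messenger RNA was measured by sequencing in GFP-positive cells sorted from the V-SVZ (the ventricular-subventricular zone, a germinal layer beside the lateral ventricles) of CD1/Swiss mice at postnatal day 2. There were 5 mutant libraries (Gsh2-Cre; Zeb2fl/ko;RCE, with 1 floxed and 1 null allele of the transcription factor gene Zeb2) and 6 control libraries (Gsh2-Cre; Zeb2fl/wt;RCE, with 1 floxed and 1 wild-type allele). Both groups therefore carried Gsh2-Cre, the RCE reporter that gives GFP after Cre recombination, and the floxed allele. Where Cre had acted, the controls were left with 1 Zeb2 allele, and the null allele of the mutants was not limited to the sorted lineage. Gsh2 is expressed in progenitors of the ventral forebrain, so the sort takes in the several cell types that descend from them.

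Retinoic acid is made from vitamin A in a series of oxidation steps and acts in the nucleus through heterodimers of a retinoic acid receptor (RAR) and a retinoid X receptor (RXR), which sit on paired copies of a short hexamer, the half-site. Without ligand the dimer recruits corepressors, and with ligand it recruits coactivators; RXR also pairs with thyroid hormone, vitamin D, PPAR, LXR and NR4A receptors. CRABP proteins carry retinoic acid in the cytoplasm and CYP26 enzymes oxidise it for removal. In the rodent forebrain Rarb and Rxrg are known for their expression in the striatum, where retinoic acid takes part in the development of projection neurons, and Crabp1 is expressed in a class of interneuron precursors of the medial ganglionic eminence (MGE).

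Because the findings concern Rxrg, Rarb and Crabp1, the stretches around their annotated starts are shown, from 250 bases before to 50 after each start (RefSeq, GRCm38.p6, read 5′ to 3′ on the strand of the gene), with every half-site, on either strand, in capitals. The half-site was read as the hexamer AGGTCA, as its common variant AGTTCA, or with a leading G in place of A as GGGTCA, and finally as GGTTCA.
Rxrg, first start, chr1:167598112-167598411, plus strand: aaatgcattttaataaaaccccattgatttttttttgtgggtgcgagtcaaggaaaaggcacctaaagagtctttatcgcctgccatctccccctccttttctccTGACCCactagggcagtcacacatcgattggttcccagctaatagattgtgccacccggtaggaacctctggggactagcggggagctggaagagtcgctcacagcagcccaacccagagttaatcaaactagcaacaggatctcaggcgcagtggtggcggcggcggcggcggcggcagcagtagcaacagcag
Rxrg, second start, chr1:167618015-167618314, plus strand: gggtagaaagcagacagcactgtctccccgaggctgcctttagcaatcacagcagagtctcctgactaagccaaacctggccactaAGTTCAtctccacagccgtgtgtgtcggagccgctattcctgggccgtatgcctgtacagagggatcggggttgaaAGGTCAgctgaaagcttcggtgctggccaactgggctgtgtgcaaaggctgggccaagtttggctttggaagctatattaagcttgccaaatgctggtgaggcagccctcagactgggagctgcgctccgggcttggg
Rarb, chr14:16575427-16575726, minus strand: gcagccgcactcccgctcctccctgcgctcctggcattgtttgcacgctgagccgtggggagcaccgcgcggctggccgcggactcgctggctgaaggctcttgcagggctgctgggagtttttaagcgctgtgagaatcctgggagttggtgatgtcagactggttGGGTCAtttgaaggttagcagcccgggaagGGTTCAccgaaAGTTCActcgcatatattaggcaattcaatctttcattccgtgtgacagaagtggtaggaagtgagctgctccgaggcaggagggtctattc
Crabp1, chr9:54764498-54764797, plus strand: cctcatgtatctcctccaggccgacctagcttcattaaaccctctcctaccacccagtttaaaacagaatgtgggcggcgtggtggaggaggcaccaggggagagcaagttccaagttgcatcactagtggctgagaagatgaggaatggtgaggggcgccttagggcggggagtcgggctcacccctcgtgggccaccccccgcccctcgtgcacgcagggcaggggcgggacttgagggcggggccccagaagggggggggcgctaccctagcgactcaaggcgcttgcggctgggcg

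RefSeq promoters were matched for 8 of the 9 genes, 15 in all, and Crabp2 was without an entry. The Rarb start matched lies inside the annotated gene (16430839 to 16819156, minus strand), and the stretch at the upstream end of that gene was not read. The Rarb promoter held the half-sites GGTTCA and AGTTCA in the same direction with 5 bases between them, in bases 53 to 37 before the start: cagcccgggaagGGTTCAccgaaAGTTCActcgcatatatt. A direct repeat of these half-sites with that spacing, on either strand, was present in 32 of all 32851 RefSeq promoters of 300 bases, or 0.0974%, and in none of the other 14 promoters of these genes. Direct repeats with a spacing of 1 or 2 bases, found in 0.222% and 0.268% of all promoters, were in none of the 15. A single half-site is common, at 43.7% of all promoters, and the Rxrg promoters held 1 and 2 of them, while that of Crabp1 held none. The motif CACCTG, an E-box of the kind that ZEB proteins bind, was read on both strands. It occurred in 20.2% of all promoters and in 2 of the 15, at 1 start each of Rara and Rarg, and in none of the sequences printed. The shorter CACCT, which every CACCTG contains, was in 51.9% of all promoters, and of the 4 printed it was in that of the first Rxrg start. These matches describe letters in a window and not binding.

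Library totals ran from 6833981 to 13073505 counts, so that a floor of 3 counts corresponded to 0.229 to 0.439 CPM, the count scaled to the library total. All levels below are CPM scaled by library totals. Genes were tested by edgeR's quasi-likelihood method with Benjamini-Hochberg adjustment over 14104 genes, and an adjusted p under 0.05 is called a rise or a fall. Whether libraries stem from separate animals is not stated in the labels, and the p-values thus reflect library-to-library spread, part of which may be technical. The Zeb2 count does not check the genotype, since it includes exons outside the deleted part and exons shared with the opposite-strand gene Zeb2os: it stood at 302 ± 71.5 CPM in mutants and 239 ± 48.9 CPM in controls (log2 fold change 0.35, adjusted p = 0.294, edgeR). The groups also differed in Y-linked counts, which were 0 in the 5 mutant libraries and in controls 4 and 5, and 763 to 2716 in controls 1, 2, 3 and 6. Xist, the RNA of the inactive X chromosome in females, had 351 to 651 CPM in mutants and 274 and 447 CPM in controls 4 and 5. In controls 1, 2, 3 and 6 it had 0 to 0.908 CPM. Sex, as read from these genes, was thus partly confounded with genotype. The retinoid and pathway genes called are therefore also given without those 4 controls.

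Of the 9 genes, Rara, Rarb, Rxrg and Crabp1 fell in the mutants and none rose. Rarg, Rxra, Rxrb and Crabp2 did not pass the test, and Cyp26b1 was too low to be tested. Among all genes tested 4.42% were called, 1.74% lower and 2.68% higher. The median log2 fold change of the 8 tested genes was -0.73, against -0.02 over all genes. The mutant and control libraries did not overlap for Rxrg and Crabp1, both lower, a pattern seen in 2.32% of all genes tested, with 2.67% higher without overlap. Fewer cells of a type and less RNA per cell cannot be told apart in these bulk libraries.

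**Figure D1:**
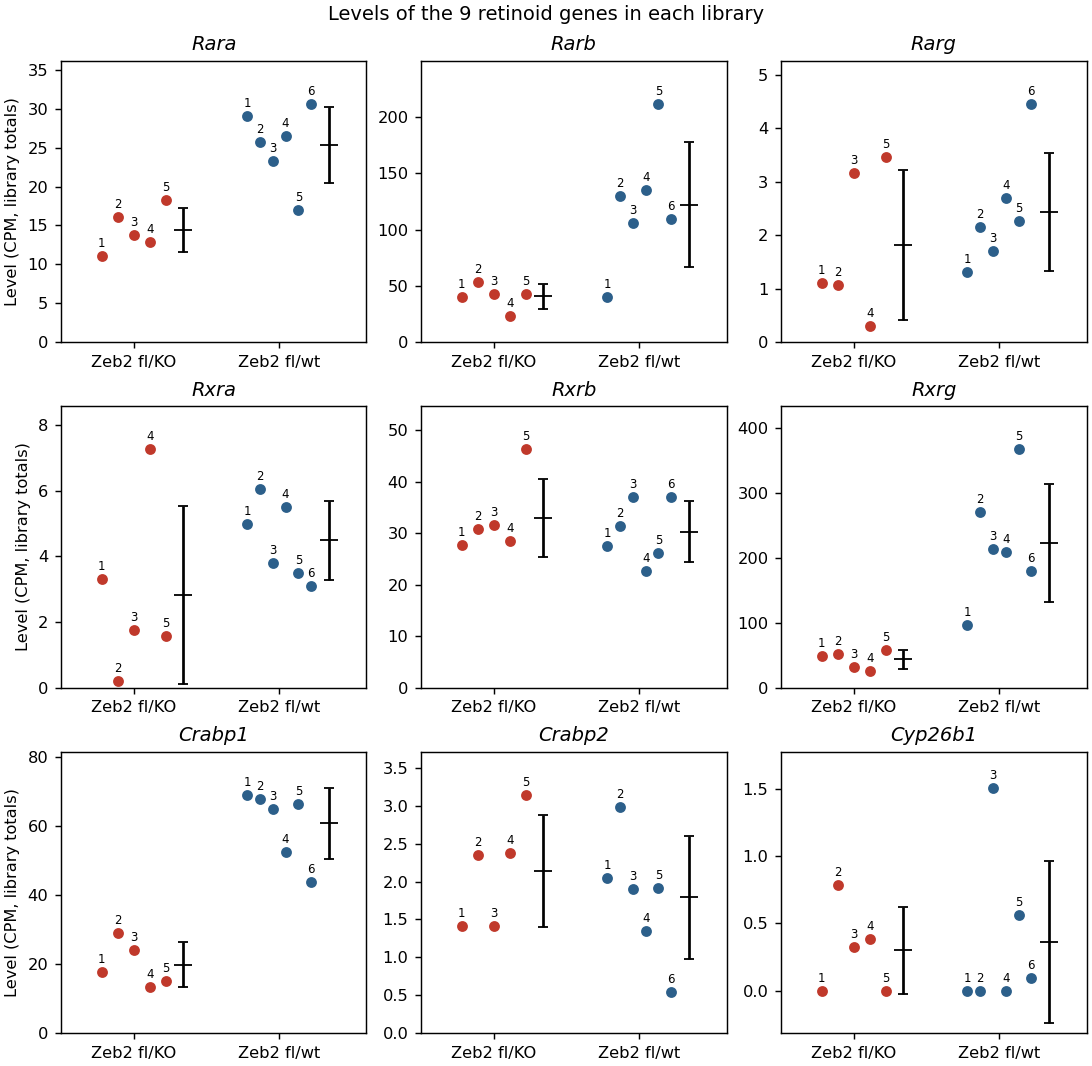
Level of each of the 9 retinoid genes in CPM (vertical axes, each from 0, or lower where an SD bar crosses 0) in the 5 Zeb2 fl/KO and 6 Zeb2 fl/wt libraries, with every library a numbered point and the mean ± SD marked. Rxrg and Crabp1 are lower in all 5 mutants than in any control, control 1 alone brings Rarb into the range of the mutants, and the groups overlap for Rxrb.

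Rxrg, which encodes the retinoid X receptor gamma and lies on chromosome 1 (167598384 to 167639623, plus strand, 2297 exon bases, ENSMUSG00000015843), had 49.3, 52.5, 31.3, 25.6 and 58.2 CPM in mutants 1 to 5, against 96.1, 271, 213, 209, 367 and 180 CPM in controls 1 to 6. Every mutant lay below every control, and control 1 was the lowest control by a wide margin. The means were 43.4 ± 14.1 CPM in mutants and 223 ± 91.0 CPM in controls (SD, n = 5 and 6), a log2 fold change of -2.33 (SE 0.302, adjusted p = 0.00035, edgeR). This is a 5.02-fold lower fitted level in the mutants. With the 2 controls that lack Y-linked counts as the only controls the value was -2.69 (adjusted p = 0.00122), and over all alternatives tried adjusted p stayed at or below 0.00191.

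Rxrb, the broadly expressed retinoid X receptor beta gene on chromosome 17 (34031812 to 34038399, plus strand, ENSMUSG00000039656), had 27.6, 30.8, 31.5, 28.4 and 46.3 CPM in mutants 1 to 5, against 27.5, 31.5, 37.0, 22.6, 26.1 and 37.0 CPM in controls 1 to 6. The groups overlapped, with mutant 5 the highest of all libraries. The log2 fold change of 0.15 had a 95% interval of -0.23 to 0.53 (adjusted p = 0.769, edgeR), which holds no fall of the size seen for Rxrg. Without mutant 5 it was -0.04.

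Rxra, the retinoid X receptor alpha gene on chromosome 2 (27676440 to 27762957, plus strand, ENSMUSG00000015846), was scarce, at 3.30, 0.196, 1.74, 7.27 and 1.57 CPM in mutants 1 to 5 and 4.98, 6.06, 3.81, 5.50, 3.50 and 3.09 CPM in controls 1 to 6. Mutant 2 held 2 counts and mutant 4 held 95, so that the mutants spread both below and above the controls. The log2 fold change of -0.66 had a 95% interval from -1.79 to 0.46 (adjusted p = 0.61, edgeR). Without mutant 4 the log2 fold change was -1.37 and without mutant 2 it was -0.37, and neither passed (adjusted p = 0.246 and 0.744).

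Read per kilobase of exon, Rxrg made up most of the RXR messages in both groups, but its share was smaller in the mutants. The summed level of the 3 RXR genes was 27.7 ± 7.10 CPM per kilobase in mutants (19.6 to 37.3) and 105 ± 39.4 CPM per kilobase in controls (49.7 to 167). Of that sum Rxrg took 67.1% ± 7.61 in mutants (56.8% to 74.6%) and 90.8% ± 4.03 in controls (84.2% to 95.7%). Rxrb took 30.6% in mutants and 8.25% in controls, and Rxra 2.24% in mutants and 0.907% in controls. On the log2 scale the ratio of Rxrg to Rxrb in CPM was 0.36 ± 0.443 in mutants and 2.79 ± 0.725 in controls, a difference of -2.44 (exact two-sided permutation p = 0.00433 over 462 splits, the smallest they can give; 0.00866 adjusted over the 2 ratios tested). All 5 mutant ratios lay below all 6 control ratios. Rxrg alone already separated the groups and Rxrb did not pass, so this ratio restates the fall in Rxrg and is not separate support. The genes in both ratios were picked with earlier results of these data known, which the adjustment does not cover.

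**Figure D2:**
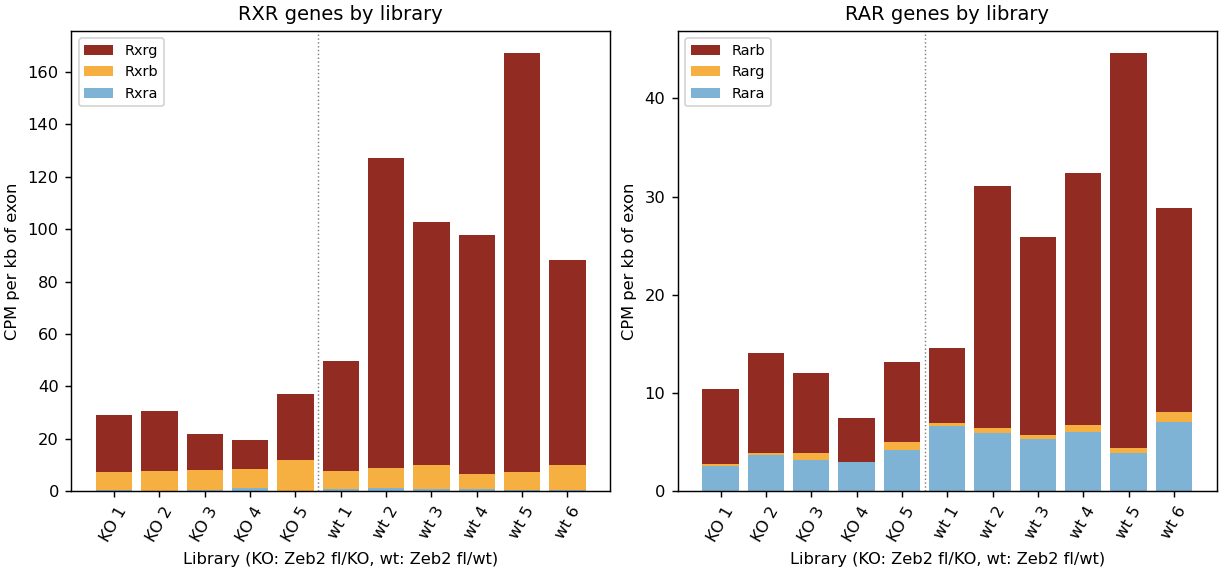
Summed level of the 3 RXR genes and of the 3 RAR genes in CPM per kilobase of exon (vertical axes, from 0) in each library, mutants left of controls, stacked by gene. The RXR columns reach 19.6 to 37.3 in mutants and 49.7 to 167 in controls, and most of the gap between them is Rxrg.

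Rarb encodes the retinoic acid receptor beta, itself switched on by retinoic acid in many cells through the repeat printed above. It lies on chromosome 14 (16430839 to 16819156, minus strand, 5265 exon bases, ENSMUSG00000017491). Its counts are of the whole gene and not only of transcripts from the start printed above. Its level was 40.3, 53.7, 42.9, 23.3 and 43.0 CPM in mutants 1 to 5, against 39.8, 130, 106, 135, 212 and 109 CPM in controls 1 to 6. The groups overlapped through control 1 alone, which lay among the mutants, and the other 5 controls were all above every mutant. The means were 40.6 ± 10.95 CPM in mutants and 122 ± 55.6 CPM in controls (SD, n = 5 and 6; log2 fold change -1.56, SE 0.317, adjusted p = 0.00953, edgeR). Without the 4 controls that hold Y-linked counts the log2 fold change was -2.06 (adjusted p = 0.00352), and over all alternatives tried adjusted p stayed at or below 0.0349. Exons of Top2b, a topoisomerase gene on the opposite strand, cover 1793 bases or 34.1% of the Rarb exon length, and without a stated strand setting reads there cannot be assigned, so the Rarb counts are uncertain. Top2b itself had 241 ± 60.1 CPM in mutants and 197 ± 70.3 CPM in controls (log2 fold change 0.31, adjusted p = 0.506, edgeR), a difference of the opposite sign that did not pass.

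Rara, the retinoic acid receptor alpha gene on chromosome 11 (98927818 to 98974942, plus strand, ENSMUSG00000037992), had 11.1, 16.1, 13.7, 12.9 and 18.3 CPM in mutants 1 to 5, against 29.1, 25.7, 23.2, 26.6, 16.9 and 30.6 CPM in controls 1 to 6. Control 5, the control with the highest Rarb and Rxrg, was the lowest control for Rara and lay between mutants 2 and 5. The means were 14.4 ± 2.80 CPM in mutants and 25.4 ± 4.87 CPM in controls (log2 fold change -0.79, SE 0.211, adjusted p = 0.0446, edgeR). The fall was close to the threshold. Its call was lost on leaving out any 1 library except control 5 or mutant 5 (log2 fold changes -0.92 to -0.70 over all 11, adjusted p from 0.0217 to 0.123). Without the 4 controls that hold Y-linked counts it was -0.57 (adjusted p = 0.516, the highest over all alternatives), and the sign was negative under every alternative tried.

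Rarg, the retinoic acid receptor gamma gene on chromosome 15 (102234938 to 102257517, minus strand, ENSMUSG00000001288), was the lowest of the 3 RAR genes. It had 1.10, 1.08, 3.16, 0.306 and 3.46 CPM in mutants 1 to 5, against 1.32, 2.16, 1.70, 2.70, 2.26 and 4.45 CPM in controls 1 to 6, from 4 to 49 counts per library. The groups overlapped widely, and the log2 fold change of -0.40 had a 95% interval from -1.53 to 0.74 (adjusted p = 0.792, edgeR).

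The summed RAR level was 11.4 ± 2.61 CPM per kilobase in mutants (7.46 to 14.1) and 29.6 ± 9.76 CPM per kilobase in controls (14.5 to 44.6). Rarb was the largest part of it in both groups, at 66.9% ± 6.10 in mutants and 75.1% ± 12.7 in controls. Rara took 29.6% in mutants and 22.9% in controls, and Rarg 3.51% in mutants and 2.01% in controls. The log2 ratio of Rarb to Rara was 1.47 ± 0.417 in mutants and 2.13 ± 1.03 in controls, a difference of -0.67 that did not pass (exact two-sided permutation p = 0.208, also 0.208 after adjustment over the 2 ratios).

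Crabp1, the cellular retinoic acid-binding protein I gene on chromosome 9 (54764748 to 54773110, plus strand, 802 exon bases, ENSMUSG00000032291), had 17.7, 28.9, 24.2, 13.3 and 15.1 CPM in mutants 1 to 5, against 69.1, 67.8, 65.0, 52.6, 66.4 and 43.8 CPM in controls 1 to 6. The groups did not overlap, and control 1, low for Rxrg and Rarb, was the highest control here. The means were 19.8 ± 6.52 CPM in mutants and 60.8 ± 10.2 CPM in controls (SD, n = 5 and 6). The log2 fold change was -1.60 (SE 0.213, adjusted p = 0.000417, edgeR), a 3.02-fold lower fitted level in the mutants. Without the 4 controls that hold Y-linked counts it was -1.56 (adjusted p = 0.0274, the highest over all alternatives tried).

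Crabp2, the gene of the second binding protein, which hands retinoic acid to the RARs, lies on chromosome 3 (87948666 to 87953376, plus strand, ENSMUSG00000004885). It was low in both groups, at 1.41, 2.35, 1.42, 2.37 and 3.15 CPM in mutants 1 to 5 and 2.05, 2.99, 1.90, 1.35, 1.92 and 0.545 CPM in controls 1 to 6. The ranges overlapped, and the log2 fold change of 0.29 had a 95% interval from -0.63 to 1.21 (adjusted p = 0.815, edgeR). Cyp26b1, on chromosome 6 (84571414 to 84593908, minus strand, ENSMUSG00000063415), had 0, 8, 3, 5 and 0 counts in mutants 1 to 5, against 0, 0, 15, 0, 5 and 1 counts in controls 1 to 6. With 16 counts in all mutants and 21 in all controls, it did not reach the filter on low counts and no difference was detectable at this depth.

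Ranked per kilobase of exon, the mutants ran Crabp1, Rxrg, Rxrb, Rarb, Rara, Crabp2, Rxra, Rarg and Cyp26b1, while in the controls Rxrg and Crabp1 were followed by Rarb, Rxrb and Rara and then the same 4 scarce genes. Crabp1 and Rxrg stood at 24.7 ± 8.13 and 18.9 ± 6.16 CPM per kilobase in mutants, and at 75.8 ± 12.8 and 97.0 ± 39.6 CPM per kilobase in controls, so that their order was within the spread in each group. Rarb, at 7.72 ± 2.08 CPM per kilobase in mutants and 23.2 ± 10.6 in controls, was level with Rxrb in mutants (8.29 ± 1.92) and above it in controls (7.62 ± 1.49). Rara had 3.30 ± 0.641 CPM per kilobase in mutants and 5.81 ± 1.12 in controls. Crabp2 (1.62 in mutants, 1.36 in controls), Rxra (0.515 in mutants, 0.822 in controls) and Rarg (0.427 in mutants, 0.570 in controls) were lowest among the tested genes, with Crabp2 above Rxra in all 5 mutants. Crabp2 and Rxra in controls, and Rxra and Rarg in both groups, lay within their spread of each other, and Cyp26b1 was at 0.0558 in mutants and 0.0672 in controls. The lengths are those of all annotated exons together, so a gene of which only short transcripts are used is placed too low.

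Within the groups, Rarb and Rxrg varied together. After the group mean was taken from each group, log2(CPM + 1) of Rarb and Rxrg had a Pearson r of 0.90 and a Spearman rho of 0.76 over the 11 libraries, as a description. Among the 6 controls alone r was 0.96 and rho 0.71 (exact permutation p = 0.0222 and 0.136; 0.207 and 0.762 after Benjamini-Hochberg adjustment over the 28 pairs of tested retinoid genes). Without controls 1 and 5, the 2 libraries farthest from the median of Rarb, r was 0.53, so the relation among the controls rests largely on those 2. For Crabp1 r was 0.15 with Rxrg and 0.21 with Rarb over the 11 libraries. Among the 6 controls r of Rxrg and Crabp1 was 0.0710, and without controls 1 and 5 it was 0.861, so this value too rests on those 2. Between Rara and Rxrg r was -0.33 over the 11 libraries and -0.76 among the 6 controls (exact permutation p = 0.0472, 0.331 adjusted). Other pairs were of like size among the 6 controls. There r was 0.93 for Crabp1 and Crabp2 and -0.91 for Rarg and Crabp1 (exact permutation p = 0.0194 each, 0.207 adjusted). None of the 28 pairs passed after adjustment, so Rarb and Rxrg do not stand apart in that test.

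**Figure D3:**
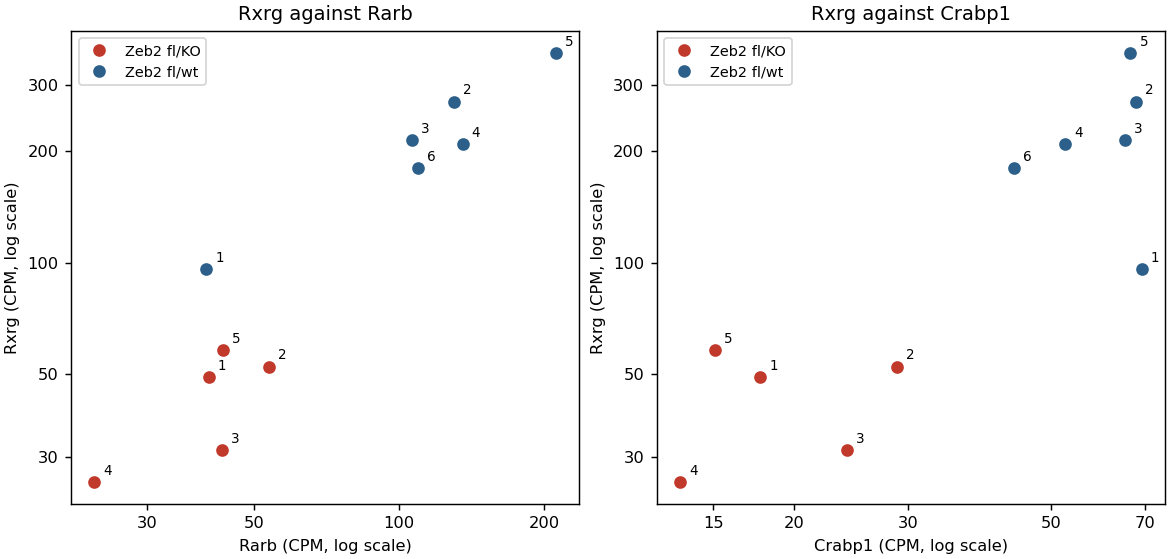
Rxrg (vertical axis) against Rarb (left) and against Crabp1 (right), in CPM on log axes, with each of the 5 mutant and 6 control libraries a numbered point. Controls 1 and 5 mark the ends of the control points on the left, and on the right control 1 has the highest Crabp1 at the lowest Rxrg of the controls.

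Among 9714 genes with a mean of at least 10 CPM, those whose group-centred levels lay nearest to Rxrg over the 11 libraries were Dhx40 (r = 0.943), Camkv (0.915), Cacna2d3 (0.913), Ppp1r1b (0.910) and Vstm2a (0.899). For Rarb they were Dhx40 (r = 0.958), Syt5 (0.925), Btrc (0.881) and L1cam (0.876). Dhx40 headed both lists, and Ppp1r1b encodes DARPP-32, a phosphatase inhibitor of striatal projection neurons. Nearest to Crabp1 were Arl5a (r = 0.889), Cmpk1 (0.844), Zfp236 (0.827), Tbc1d5 (0.823) and Rap1a (0.801). For Rara they were Ncaph2 (r = 0.939), Chchd5 (0.927), Tmem86a (0.919), Bckdk (0.916) and Tubb4a (0.912), and for Rarg, at its few counts, Zfp3 (0.938), Chmp7 (0.901), Vars (0.878), Adar (0.876) and Def8 (0.872). The highest of this many correlations over 11 points are large by selection, and they are given as a description only.

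Markers of some cell types of the sort also differed between the groups. Of 19 markers of striatal projection neurons 7 fell and 1, Drd1, rose, and their summed level was 853 to 1099 CPM in mutants and 1306 to 2791 CPM in controls. Controls 1 and 5 were the lowest and highest control in this sum, as they were for Rxrg and Rarb. Of 12 MGE interneuron markers 6 rose and 1 fell, with a summed level of 2689 to 4123 CPM in mutants and 611 to 1015 CPM in controls. The 14 markers of GABAergic and V-SVZ cells, at 6926 to 7792 CPM in mutants and 6457 to 8639 CPM in controls, were abundant in every library, and 1 of them, Gad2, rose. Among all genes tested 1.74% were called lower and 2.68% higher. The part of these markers in the changes of the retinoid genes was not tested.

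The level of Rxrg was also set against the summed striatal markers. It came to 30.04, 44.9 and 57.4 CPM per 1000 CPM of these markers in mutants (lowest, median and highest library), against 73.6, 117 and 132 in controls, without overlap. That sum is led by Meis2, at 392.4 ± 14.5 CPM in mutants and 552 ± 122 CPM in controls. Against single markers, a comparison added after the sums were seen, the ratio of Rxrg was lower in mutants without overlap for 7 of 19 and overlapped for the other 12. Against Foxp1 it was 0.338 to 0.514 in mutants and 0.429 to 0.952 in controls, and against Adora2a 1.51 to 2.66 in mutants and 1.72 to 3.498 in controls. The same measure for Rarb was 27.4, 42.5 and 51.6 in mutants and 30.5, 63.6 and 83.8 in controls, with overlap. Crabp1 and the MGE markers moved in opposite directions, so that Crabp1 came to 3.91, 5.62 and 8.11 CPM per 1000 CPM of MGE markers in mutants, against 64.0, 69.4 and 75.5 in controls. These ratios are descriptions and carry no test, and how often such ratios separate the groups over all genes was not counted.

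**Figure D4:**
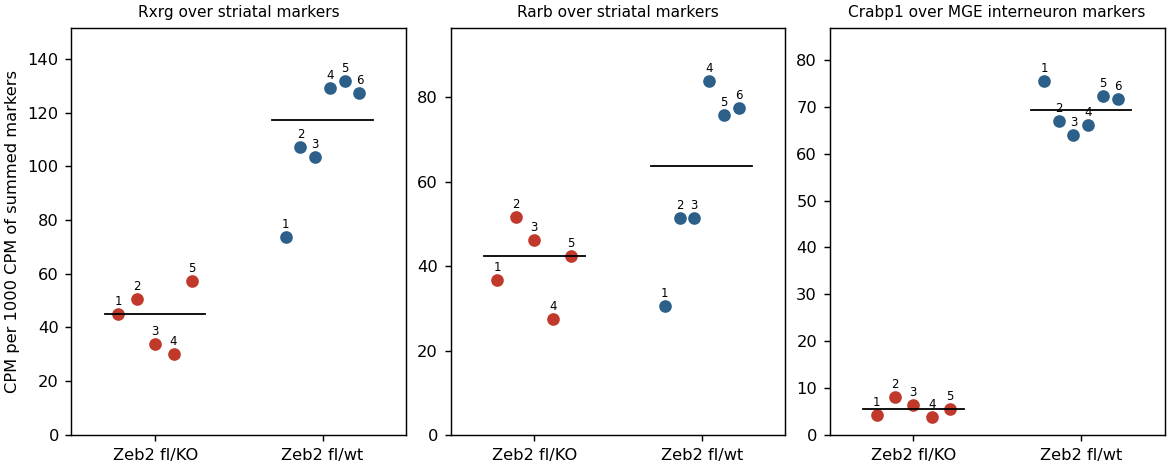
Level of Rxrg and Rarb per 1000 CPM of summed striatal projection neuron markers, and of Crabp1 per 1000 CPM of summed MGE interneuron markers (vertical axes, from 0), with each library a numbered point and the line at the group median. Mutants lie below controls without overlap for Rxrg and Crabp1. For Rarb controls 1, 2 and 3 lie within the mutant range, with controls 2 and 3 just below mutant 2, the highest mutant.

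Other cell types were scarce by their markers. The summed levels were 26.1 to 83.8 CPM in mutants and 20.2 to 71.9 CPM in controls for 7 endothelial markers (Tek at 0 in every library), and 19.0 to 23.9 CPM in mutants and 12.9 to 45.6 CPM in controls for 10 mural and meningeal ones. Most of the endothelial sum came from Slco1c1, at a mean of 42.7 CPM in mutants and 40.9 CPM in controls. Cldn5 averaged 2.48 CPM in mutants and 1.32 CPM in controls. The 7 microglial markers summed to 2.14 to 8.93 CPM in mutants and 0.501 to 9.72 CPM in controls, and the 5 erythroid ones, with Hba-a2 at 0, to 2.20 to 5.19 CPM in mutants and 0.636 to 5.41 CPM in controls. Tests were possible for 2 of the 7 endothelial, 4 of the 10 mural and meningeal, 1 of the 7 microglial and 2 of the 5 erythroid markers, and none of these passed. Among those too low to test, Dcn, named after its values were seen, held 84 counts in mutants, 2 of which had none, and 0 in every control. The 8 choroid plexus and ependymal markers were at 205 CPM in mutant 5, from Ttr, and at 6.95 to 10.1 CPM in the other mutants and 6.73 to 18.9 CPM in controls. Leaving out mutant 5 gave log2 fold changes of -2.49 for Rxrg, -1.60 for Rarb and -1.53 for Crabp1, each past the threshold.

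Of 89 further genes of the retinoid pathway 64 were tested, of which 2 rose, Dhrs3 among them, 3 fell, Ncoa1 and Drd2 among them, and 59 did not pass. Their median log2 fold change was -0.23, and the background is the same 1.74% lower and 2.68% higher among all genes tested.

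In retinoid uptake, storage and retinoic acid synthesis 12 of 22 genes were tested, with 1 higher, 1 lower and a median log2 fold change of -0.28. Dhrs3, which encodes an enzyme that reduces retinaldehyde back to retinol, was the gene that rose. It had 10.05, 11.5, 24.1, 31.9 and 14.6 CPM in mutants 1 to 5, against 5.71, 11.4, 5.81, 8.09, 8.13 and 3.82 CPM in controls 1 to 6. Control 2 reached into the mutant range, and the log2 fold change of 1.38 (SE 0.334, adjusted p = 0.0295, edgeR) lost its call without control 1, 3 or 4 or mutant 3 or 4 (1.10 to 1.42, adjusted p up to 0.0972). Without the controls that hold Y-linked counts Dhrs3 was at 1.20 (adjusted p = 0.329).

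Adh5, an alcohol dehydrogenase gene, averaged 228 ± 24.2 CPM in mutants and 308 ± 59.6 CPM in controls without overlap, but did not pass (log2 fold change -0.42, adjusted p = 0.0993, edgeR). Rdh11, a retinol dehydrogenase gene, and Dgat1, which makes retinyl esters, were at -0.13 and 0.39 on the log2 scale (adjusted p = 0.678 and 0.339). The enzymes that make retinoic acid from retinaldehyde were scarce. Aldh1a3, named here after its values were seen, had 3.40 ± 1.74 CPM in mutants and 9.68 ± 5.74 CPM in controls without overlap (log2 fold change -1.51, adjusted p = 0.111, edgeR), while Aldh1a1 totalled 21 counts in mutants and 6 in controls, and Aldh1a2 0 counts in mutants and 4 in controls. Stra6, the retinol uptake receptor gene, also named after its values were seen, was at -0.89 (adjusted p = 0.139).

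Of the 5 other genes of retinoic acid clearance and delivery 3 were tested and none passed (median -0.53). Fabp5, a fatty acid-binding protein gene whose product can carry retinoic acid, had 44.5 ± 12.4 CPM in mutants and 64.7 ± 10.4 CPM in controls without overlap (log2 fold change -0.53, adjusted p = 0.16, edgeR). Fabp7, a brain lipid-binding protein gene of radial glia, was at -0.31 and Cyp2s1, a cytochrome P450 gene, at -0.78 (adjusted p = 0.477 and 0.474). Of 14 other partners of RXR 9 were tested and none passed (median -0.51): Thra, a thyroid hormone receptor gene, was at -0.42, Nr1h2, which encodes the oxysterol receptor LXR beta, at 0.07 and Nr4a1, an immediate-early nuclear receptor gene, at -0.89 (adjusted p = 0.262, 0.889 and 0.244). Exons of Thra overlap Nr1d1 on the opposite strand.

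All 10 orphan receptor genes were tested, with a median of 0.09, and 1 passed. Nr2c1 and Nr2c2, which encode the testicular receptors TR2 and TR4, and Rorb were at 0.18, 0.21 and -0.40 (adjusted p from 0.607 to 0.777). Exons of Nr2c2 overlap Mrps25 on the opposite strand.

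Of 19 corepressor and coactivator genes, all tested with a median of -0.09, Ncoa1 alone fell. Ncoa1, which encodes the steroid receptor coactivator SRC-1, had 31.8 ± 5.66 CPM in mutants (22.8 to 36.0) and 64.3 ± 21.003 CPM in controls (43.7 to 85.8), without overlap (log2 fold change -0.995, SE 0.212, adjusted p = 0.0132, edgeR). Without the controls that hold Y-linked counts it was -1.01 (adjusted p = 0.0936), and with the Y-linked level as a covariate -0.95 (adjusted p = 0.153, the highest over its alternatives). The abundant corepressor genes Hdac3 and Tbl1x and the mediator gene Med1 were at -0.13, -0.19 and -0.06 on the log2 scale (adjusted p from 0.413 to 0.854).

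Of 26 genes known to respond to retinoic acid, 16 were tested, with 1 higher (Dhrs3), 3 lower (Rarb and Drd2 among them) and a median of -0.34. Drd2, the D2 dopamine receptor gene, is also one of the striatal markers above. It had 5.33 ± 1.90 CPM in mutants (2.91 to 7.15) and 15.8 ± 7.06 CPM in controls (4.98 to 24.7), with overlap (log2 fold change -1.55, SE 0.376, adjusted p = 0.0291, edgeR). The call was lost without control 2 or 3 or mutant 1, 4 or 5 (-1.60 to -1.39, adjusted p up to 0.076) and without the controls that hold Y-linked counts (-1.29, adjusted p = 0.202). Meis2, a homeobox gene of the same lineage, had 392.4 ± 14.5 CPM in mutants and 552 ± 122 CPM in controls (log2 fold change -0.47, adjusted p = 0.0546, edgeR), while Gap43 and Ntrk2, a growth cone protein and a neurotrophin receptor gene, were at -0.28 and -0.20 (adjusted p = 0.515 and 0.584).

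**Figure D5:**
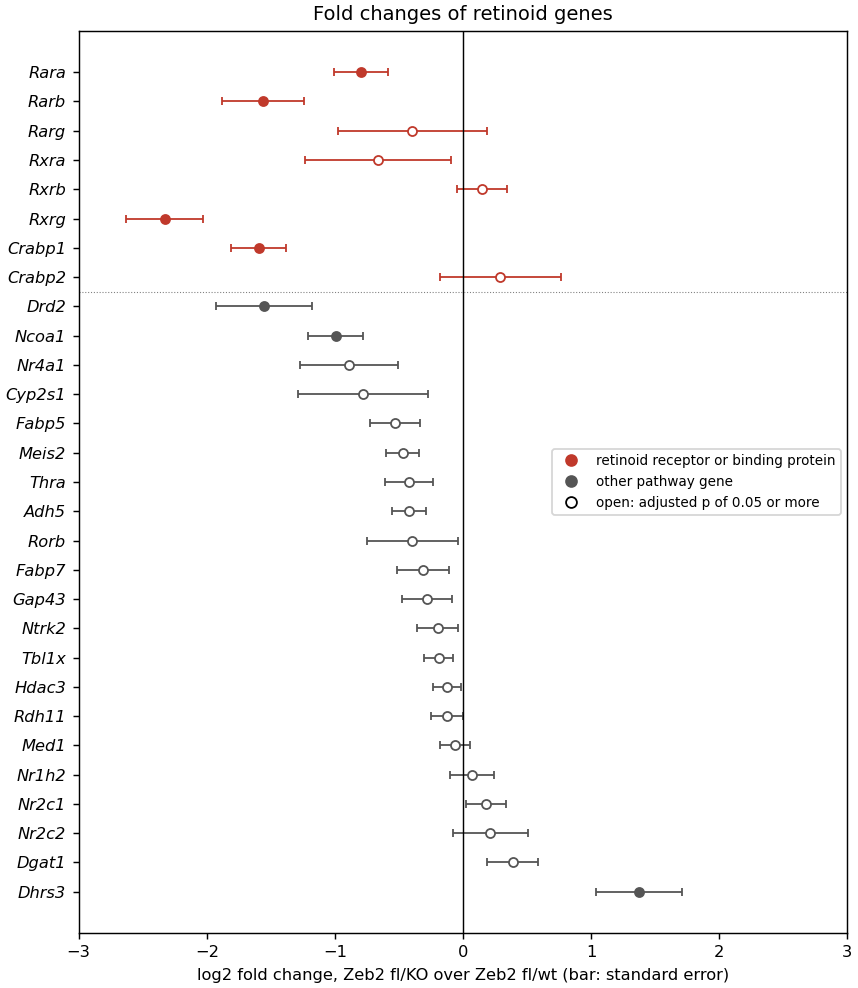
Log2 fold change, Zeb2 fl/KO over Zeb2 fl/wt, with its standard error (horizontal axis) for the 8 tested retinoid receptor and binding protein genes above the dotted line and for the named pathway genes below it, filled where the adjusted p was under 0.05 in edgeR. Rxrg, Crabp1, Rarb and Rara lie left of 0, as do Drd2 and Ncoa1, while Dhrs3 lies right of it.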

How the data were processed

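The deposited table holds raw read counts per Ensembl gene, which the authors made with TopHat2 2.0.13 and featureCounts 1.4.6 on mm10/GRCm38 (builds and tools per the submitters' processing notes). Not given in the sources used here are the annotation release, the strand setting and how multiply aligned reads were handled. Cells were dissociated with papain, sorted and lysed in Trizol LS, and libraries followed Illumina's TruSeq protocol, per the labels' protocols. Every per-sample column was used.

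Symbols, exons and coordinates came from a GENCODE annotation of GRCm38, which with a table of gene names matched 37607 of 39179 identifiers. No pair of replicates agreed within sampling noise (lowest chi-square per degree of freedom 13.7), and each library counted as 1 sample. The counts went through edgeR 4.0.16 (R 4.3.3) with filterByExpr, TMM scaling, the robust quasi-likelihood fit and Benjamini-Hochberg adjustment over 14104 genes, at 0.05. Standard errors came from the fold change and the F statistic, and 95% intervals are 1.96 standard errors either way. The test was checked on simulated counts. Ratios were compared with exact permutation tests (Python 3.11.15, scipy 1.17.1). Floors cover counting error only.

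The retinoid genes and all lists were chosen with earlier results of these data known. Named pathway genes are those past the threshold, up to 6 a list, and up to 3 others with the highest mean CPM, unless said otherwise. Genes most alike are the 5 with the highest Pearson correlation. Some genes that these rules or a count would name are left out of the text and figures. Alternatives were scaling by RLE, by upper quartile or by library totals, 2 other filters, DESeq2 1.42.0, limma-voom (limma 3.58.1), the Y-linked level (4 genes) as covariate, a replicate block, libraries without Y-linked counts, and leaving out each library. Leaving out the gene Gm42418 (6.25% to 12.2% of counts), controls 1 or 6 with mutant 5, were chosen after seeing the data.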

Additional observations from a re-analysis of the deposited data

Results flagged for a closer look

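Of 56 groups of values examined, 2 held a library far from the others of its group, where chance gives about 1 in 20 groups. Rxrb stood at 46.3 CPM in mutant 5, against 27.6 to 31.5 CPM in the other mutants. The summed choroid plexus and ependymal markers stood at 205 CPM in the same library, against 6.95 to 10.1 CPM in the other mutants.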

How the results depend on the processing

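Rxrg, Crabp1 and Rarb kept their sign and call under all 24 alternatives (log2 fold changes -2.69 to -2.13, -1.78 to -1.47 and -2.06 to -1.34). Between 3 and 4 of the 9 retinoid genes were called lower and 0 higher. Rara lost its call with the Y-linked covariate (-0.61), in libraries without Y-linked counts (-0.57), with the replicate block (-0.73), without a filter (-0.78), without control 1 and mutant 5 (-0.86), and in 9 of 11 fits without 1 library (-0.92 to -0.70 over all 11). Rxrb changed sign without mutant 5 (-0.0390; over the 11 such fits -0.0390 to 0.22) and without control 1 and mutant 5 (-0.0445), and Crabp2 without control 6 and mutant 5 (-0.10). The further pathway genes called higher numbered 2, against 0 with the Y-linked covariate or without Y-linked libraries, 1 with limma-voom, with the replicate block or without either control 1 or 6 and mutant 5, and 1 to 2 without 1 library. Those called lower numbered 3, against 9 with DESeq2, 1 with the Y-linked covariate and 2 to 4 without 1 library. The causes were not tested.

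Libraries of the 2 groups share only a number: deviations of same-numbered pairs correlated at -0.18 to 0.02. With the replicate block Rxrg was at -2.35, Rarb -1.47 and Crabp1 -1.72, while Rara, Dhrs3 (1.16, adjusted p = 0.109) and Drd2 (-1.32, adjusted p = 0.0844) lost their calls. Over all genes, 378 were higher and 245 lower, against 614 and 495 with DESeq2, 120 and 66 with the Y-linked covariate, 150 and 68 without Y-linked libraries, and 141 lower with the block. Low counts limit Rarg, Rxra, Crabp2 and Cyp26b1.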
